A study of Mus musculus with 20 samples.

Results

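Glycolysis splits glucose to pyruvate and lactate, and gluconeogenesis makes glucose from lactate and other precursors by bypassing the irreversible glycolytic steps. Transcripts of 9 enzymes of these routes were looked for in mouse kidney, chosen by gene name. The 6 glycolytic genes were Hk1, Hk2, Pfkp, Pfkfb3, Pgk1 and Ldha, and the gluconeogenic ones G6pc, Fbp1 and Pck1. Of these, 8 were measured among the 27827 gene names on the array, and Pck1 was not analysed here. Hk2, Pfkp and Pfkfb3 were higher after renal ischemia and reperfusion in all 3 groups that underwent it, by 1.73-fold to 8.54-fold over Control. The call of Hk2 in the ischemic group pretreated with Hemin held in 4 of 8 fits that each left out 1 array. A second test, SAM, called Pfkp alone, and only in the pretreated ischemic groups. Hk1, Pgk1 and Ldha did not pass the test in any comparison. G6pc was lower than in Control after preconditioned ischemia and after Hemin alone, at 45.8% and 52.5% of the Control level, and Fbp1 passed no test.

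Kidney RNA of male C57BL/6 mice aged 8 to 12 weeks was hybridised in 5 groups of 4 arrays. No surgery or treatment is recorded for the Control mice. In the ischemia-reperfusion injury group (IRI), both renal pedicles were clamped for 45 minutes and the kidney was taken 6 hours after reperfusion. The IRI+Hemin group received Hemin, a heme compound that induces heme oxygenase, at 25 mg/kg intraperitoneally 24 hours before the same surgery. The IPC+IRI group had an ischemic preconditioning clamp of 15 minutes 7 days before it, and the Hemin group received Hemin without surgery. No sham-operated or vehicle-treated mice are described among these groups, so clamping, anesthesia and incision cannot be told apart in a comparison with Control. Nothing in the labels ties each array to a separate mouse, and the p-values measure the spread between these arrays. Whole kidney was used, so fewer cells of a type and less RNA per cell cannot be told apart.

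The proximal tubule is the main site of gluconeogenesis in the kidney and uses little glucose, whereas the distal segments, above all in the medulla, rely more on glycolysis. Hexokinases trap glucose as glucose 6-phosphate, and phosphofructokinase commits it to glycolysis under the control of fructose 2,6-bisphosphate, which Pfkfb enzymes make. Fructose-1,6-bisphosphatase and glucose-6-phosphatase reverse these steps, and hypoxia-inducible factor (HIF) is a known activator of several glycolytic genes.

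A level is given below as log2 of the array's processed signal divided by that array's own 75th percentile, so 0 marks the 75th percentile and 1 unit is a doubling. The median 75th percentile ran from 198.8 in IRI to 283.2 in IRI+Hemin, and 56.8% to 67.3% of the probes were well above background on an array. Every slide carried the arrays of a single group, so a slide effect and a group effect cannot be told apart, and only Control and IRI were scanned on the same day. Control replicate 2 had a 75th percentile of 146.7, the lowest in its group, and was the highest Control array for 6 of the 8 genes. A gene was called where limma's moderated test gave a Benjamini-Hochberg adjusted p below 0.05 over all genes tested.

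Promoters are shown because HIF is known to act on glycolytic genes through the core ACGTG or GCGTG, and because the genes that rose and those that did not can be set beside each other. Sequences are from RefSeq on GRCm38.p6, in which all 8 genes had a start site, 11 in all. Each shown run holds the 250 bases before the start site lying farthest 5′, read in the gene's direction, with every HIF core on either strand in capitals. The windows lie at chr6:82774455-82774704 (minus strand, Hk2), chr13:6648772-6649021 (minus, Pfkp), chr2:11553930-11554179 (minus, Pfkfb3), chrX:106186850-106187099 (plus, Pgk1), chr7:46845554-46845803 (plus, Ldha) and chr11:101367466-101367715 (plus, G6pc).
Hk2: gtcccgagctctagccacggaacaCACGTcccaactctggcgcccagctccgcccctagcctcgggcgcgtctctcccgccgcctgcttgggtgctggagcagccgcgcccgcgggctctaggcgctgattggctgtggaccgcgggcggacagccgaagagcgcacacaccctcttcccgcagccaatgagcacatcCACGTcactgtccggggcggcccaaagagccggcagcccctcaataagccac
Pfkp: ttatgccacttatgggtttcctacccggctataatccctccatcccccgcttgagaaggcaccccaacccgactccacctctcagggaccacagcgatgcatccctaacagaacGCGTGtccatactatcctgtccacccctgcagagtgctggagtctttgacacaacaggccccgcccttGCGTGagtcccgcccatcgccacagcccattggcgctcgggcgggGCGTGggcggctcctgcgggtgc
Pfkfb3: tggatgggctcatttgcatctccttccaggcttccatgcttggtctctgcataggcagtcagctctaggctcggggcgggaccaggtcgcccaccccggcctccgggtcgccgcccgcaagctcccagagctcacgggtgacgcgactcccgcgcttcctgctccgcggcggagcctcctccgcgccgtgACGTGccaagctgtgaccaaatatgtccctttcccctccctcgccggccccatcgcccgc
Pgk1: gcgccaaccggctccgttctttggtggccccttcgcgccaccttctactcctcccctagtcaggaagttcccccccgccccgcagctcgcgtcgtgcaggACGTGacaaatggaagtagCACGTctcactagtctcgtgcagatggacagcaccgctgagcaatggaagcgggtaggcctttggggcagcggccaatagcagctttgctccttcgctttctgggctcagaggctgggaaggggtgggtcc
Ldha: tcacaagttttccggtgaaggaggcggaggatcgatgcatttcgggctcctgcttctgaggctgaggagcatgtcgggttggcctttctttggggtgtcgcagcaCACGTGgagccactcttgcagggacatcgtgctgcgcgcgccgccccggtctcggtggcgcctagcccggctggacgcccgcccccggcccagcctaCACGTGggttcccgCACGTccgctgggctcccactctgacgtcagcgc
G6pc: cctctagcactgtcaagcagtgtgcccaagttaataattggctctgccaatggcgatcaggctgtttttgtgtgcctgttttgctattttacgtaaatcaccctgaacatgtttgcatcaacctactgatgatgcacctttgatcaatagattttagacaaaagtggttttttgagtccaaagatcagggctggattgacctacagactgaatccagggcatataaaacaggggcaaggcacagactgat
Hk2 held 2 cores, Pfkp 3, Pfkfb3 1, Pgk1 2 and Ldha 5, of which 4 form the palindrome CACGTG, read once on each strand at 2 places. G6pc and Fbp1 held none. Of the start sites not shown, Hk1 had no core at the first and 3 at the second, Pfkfb3 had 3 at its second and Ldha 1. Over all 32851 start sites, 38.6% held a core of either form in this window, 16.6% ACGTG and 28.2% GCGTG. So a HIF core was present in the windows of genes that rose (Hk2, Pfkp, Pfkfb3) and of genes that passed no test (Pgk1, Ldha). These windows were 62.8% to 69.6% G or C, and that of G6pc was 43.2%. The share over all start sites was not matched for this. The half-site TGACG of the cAMP response element was found in Hk2, Pfkfb3 and Ldha, overlapping an ACGTG core in the first 2 of these, and in 17.8% of all start sites. The full element TGACGTCA was found in Ldha alone of these genes and in 1.55% of all start sites. The forkhead motif GTAAACA (3.17% of all) was found in none of the 11 windows, and TATAAA (12.4% of all) in that of G6pc. A match describes the letters and says nothing of binding.

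**Figure D1:**
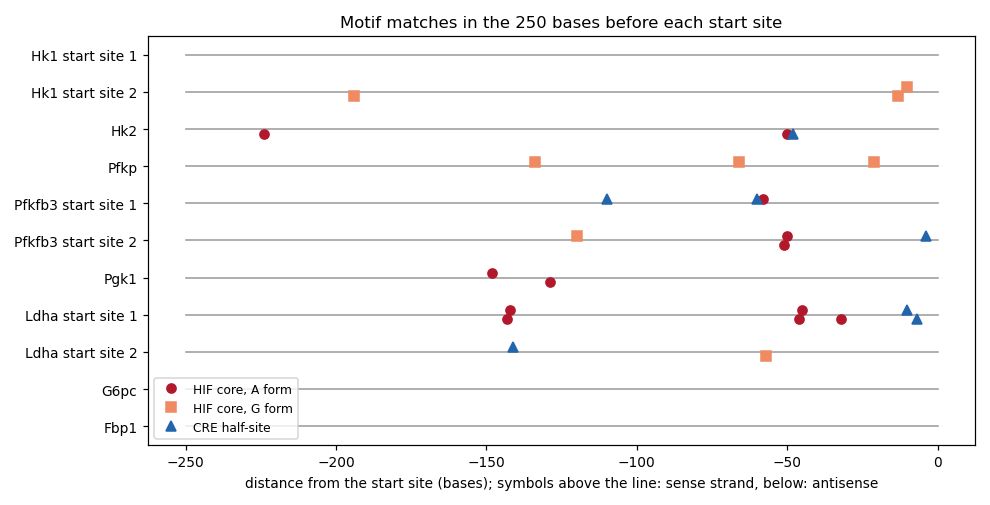
Matches to the HIF core (circles for the ACGTG form, squares for the GCGTG form) and to the half-site of the cAMP response element (triangles) along the 250 bases before each of the 11 start sites; the x axis is the distance from the start site in bases, and start site 1 is the one farthest 5′. Ldha start site 1 carries 5 cores, and the G6pc and Fbp1 lines are empty.

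Many genes of the array changed, which sets the background for every count below. In IRI vs Control, 17.1% of 17711 genes were called higher and 33.9% lower (10.1% and 7.89% after normexp background correction, 20.6% and 26.0% after quantile normalization, 9.48% and 38.9% in the deposited matrix). The shares were 24.4% and 33.2% in IRI+Hemin vs Control (36.4% and 10.7% without normalization between arrays). They were 23.3% and 32.7% in IPC+IRI vs Control (33.9% and 11.2% without normalization). Hemin vs Control had 18.5% and 17.6% (47.5% and 2.64% without normalization). Among ischemic groups, IRI+Hemin vs IRI had 26.3% and 18.1% (14.7% and 18.3% with normexp, 36.7% and 3.47% without normalization, 32.0% and 9.69% in the deposited matrix). IPC+IRI vs IRI had 26.3% and 17.9% (13.2% and 13.8% with normexp, 33.5% and 3.41% without normalization, 28.8% and 10.6% in the deposited matrix). Without normalization the median log2 difference of all genes was 0.38, 0.35, 0.62, 0.45 and 0.41 in the last 5 of these comparisons and -0.05 in IRI vs Control, so changes there are read against that shift.

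The first step of glycolysis was examined through 2 hexokinases. Hk2 is the inducible hexokinase and Hk1 the housekeeping form. Hk2 stood at -2.55, -0.20, -4.70 and -4.42 on Control arrays 1 to 4, and array 3 was not well above background. On the IRI arrays it stood at 0.82, -0.28, -0.67 and 0.64. On the IRI+Hemin arrays it stood at -1.46, 0.46, -1.29 and -1.75. The ischemic arrays lay above 3 of the 4 Control arrays, and Control replicate 2 lay within their range. On the IPC+IRI arrays Hk2 stood at -0.94, 0.50, 0.19 and -0.81, and on the Hemin arrays at -2.47, -4.44, -2.99 and -3.67. Every Hemin array lay below every ischemic array and within the range of Control.

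Against Control, Hk2 rose by 3.09 ± 0.77 (log2, SE) in IRI, an 8.54-fold difference with an adjusted p of 0.00275. It rose by 2.70 ± 0.77 in IPC+IRI (adjusted p = 0.00639) and by 1.95 ± 0.77 in IRI+Hemin (adjusted p = 0.038). The last call rested on single arrays: without Control replicate 3 or 4, or IRI+Hemin replicate 2 or 3, the difference was 1.38, 1.47, 1.46 or 2.05 and passed no threshold. Normexp gave 0.71 (adjusted p = 0.15), and with only the compared arrays in the fit the adjusted p was 0.117. Without Control replicate 2 the differences in IRI, IPC+IRI and IRI+Hemin were 4.02, 3.62 and 2.88, and normexp gave 1.59 and 1.25 in the first 2, still called. In Hemin vs Control the difference was -0.43 with a 95% interval from -2.05 to 1.20.

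Hk1 passed no test, and its groups overlapped. Its mean was 1.72 ± 0.265 in Control (SD, n = 4 here and below), 1.98 ± 0.04 in Hemin, 1.81 ± 0.26 in IPC+IRI, 1.88 ± 0.17 in IRI+Hemin and 1.82 ± 0.18 in IRI. The largest difference from Control was in Hemin, 0.26 with an interval from -0.04 to 0.57 and an adjusted p of 0.162. Without Control replicate 1, whose 2.11 lay apart from the 1.53 to 1.63 of the other Control arrays, this difference was 0.39 and passed the test (adjusted p = 0.039). The ischemic groups differed from Control by 0.09 to 0.16.

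**Figure D2:**
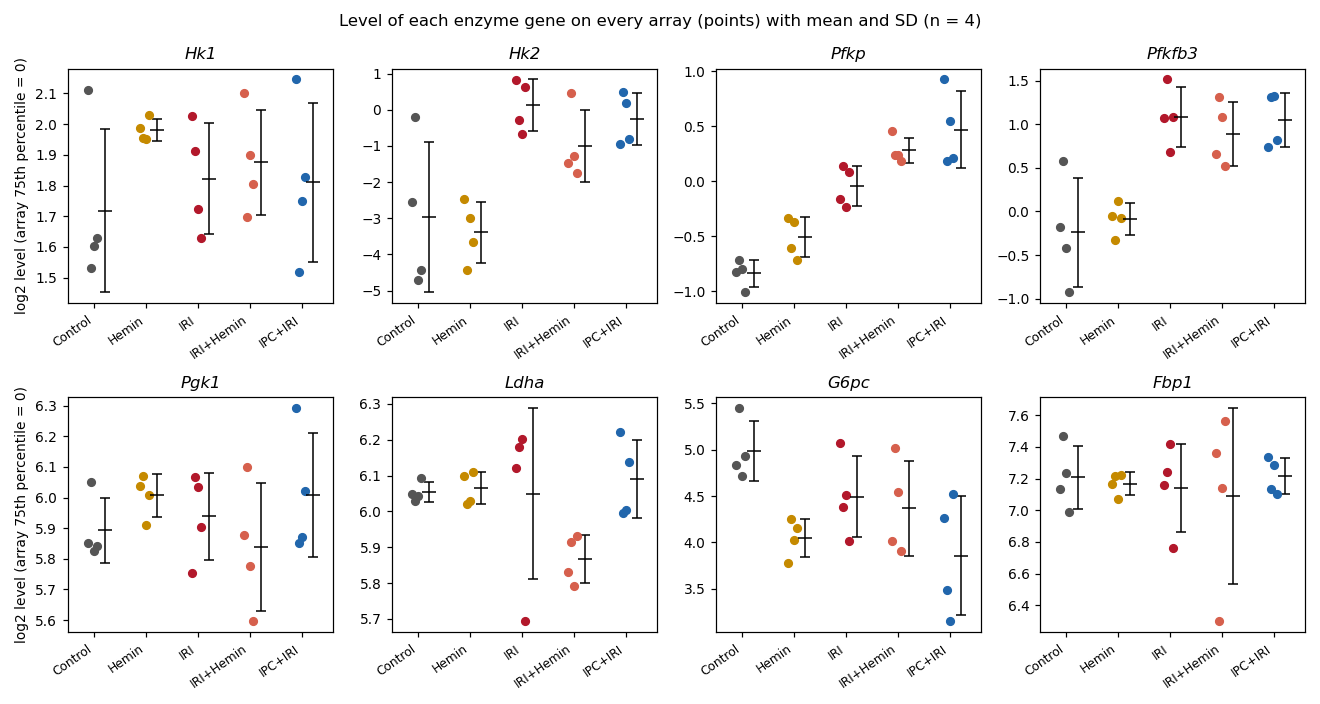
Level of each measured gene on every array (coloured points, log2 relative to the array's 75th percentile) in the 5 groups, with the group mean and SD in black; each panel has its own y axis. Hk2, Pfkp and Pfkfb3 stand higher in IRI, IRI+Hemin and IPC+IRI than in Control, while the Pgk1 arrays of all groups lie within 5.60 to 6.29.

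The committing step of glycolysis is represented here by Pfkp, the platelet form of phosphofructokinase, and by Pfkfb3, the bifunctional enzyme with a strong kinase activity that makes its activator. Pfkp stood at -0.83, -0.72, -0.80 and -1.01 on the Control arrays and at -0.16, 0.14, -0.24 and 0.08 on the IRI arrays. It stood at 0.45, 0.23, 0.24 and 0.19 on the IRI+Hemin arrays and at 0.93, 0.18, 0.55 and 0.21 on the IPC+IRI arrays. None of the 3 ischemic groups overlapped with Control. On the Hemin arrays it stood at -0.33, -0.61, -0.37 and -0.71, narrowly above every Control array and below every ischemic one.

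Pfkp rose over Control by 0.79 ± 0.15 in IRI (1.73-fold, adjusted p = 0.000281), by 1.12 ± 0.15 in IRI+Hemin (adjusted p = 8.42e-06) and by 1.30 ± 0.15 in IPC+IRI (2.47-fold, adjusted p = 2.11e-06). In Hemin vs Control the difference was 0.33, with an interval from 0.02 to 0.65 and an adjusted p of 0.0914. The brightest probe alone passed that test, at 0.38 (adjusted p = 0.0211). The order of the means was Control, Hemin, IRI, IRI+Hemin and IPC+IRI, and of neighbours in it only IRI+Hemin and IPC+IRI overlapped. Control and Hemin did not differ beyond the threshold, nor did IRI and IRI+Hemin (adjusted p = 0.0859), and the other neighbours were not compared by a test.

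Pfkfb3 stood at -0.18, 0.58, -0.42 and -0.92 on the Control arrays and at -0.06, -0.33, 0.11 and -0.08 on the Hemin arrays. It stood at 1.07, 1.52, 0.68 and 1.08 on the IRI arrays. It stood at 0.66, 1.31, 1.09 and 0.52 on the IRI+Hemin arrays and at 0.74, 1.31, 1.33 and 0.82 on the IPC+IRI arrays. The ischemic arrays lay above all Hemin arrays, and a single IRI+Hemin array fell below Control replicate 2. Pfkfb3 rose by 1.32 ± 0.26 in IRI (2.50-fold, adjusted p = 0.000428), by 1.13 ± 0.26 in IRI+Hemin (adjusted p = 0.00138) and by 1.29 ± 0.26 in IPC+IRI (adjusted p = 0.000476). In the deposited matrix the IRI+Hemin difference was 1.99 with an adjusted p of 0.0538. In Hemin vs Control the difference was 0.15, with an interval from -0.40 to 0.70.

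The later steps were represented by Pgk1, phosphoglycerate kinase, which forms ATP, and Ldha, the lactate dehydrogenase subunit that favours lactate formation. Pgk1 had a mean of 5.89 ± 0.11 in Control, 6.01 ± 0.07 in Hemin, 6.01 ± 0.20 in IPC+IRI, 5.84 ± 0.21 in IRI+Hemin and 5.94 ± 0.14 in IRI. All 4 differences from Control lay between -0.05 and 0.12, and their intervals reached no further than -0.31 and 0.37. Ldha had a mean of 6.05 ± 0.03 in Control, 6.07 ± 0.05 in Hemin, 6.09 ± 0.11 in IPC+IRI, 5.87 ± 0.07 in IRI+Hemin and 6.05 ± 0.24 in IRI. The IRI difference was -0.00 with an interval from -0.22 to 0.21. The 4 IRI+Hemin arrays (5.83, 5.92, 5.79 and 5.93) lay below all Control arrays, whose lowest was 6.03. That difference of -0.19 had an adjusted p of 0.132, and it passed the test after quantile normalization (-0.31, adjusted p = 0.00687), while normexp gave 0.13 and no normalization 0.30, neither passing.

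**Figure D3:**
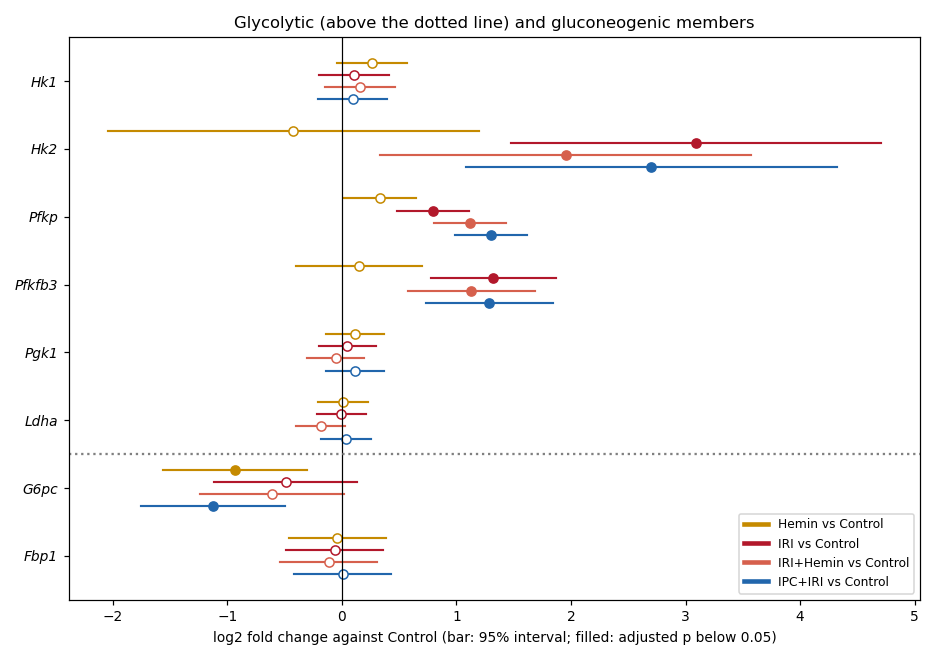
Log2 fold change against Control (x axis) of the 6 glycolytic genes, above the dotted line, and the 2 gluconeogenic genes below it, with the 95% interval as a bar; filled points have an adjusted p below 0.05. Hk2, Pfkp and Pfkfb3 are filled in the 3 ischemic comparisons, and G6pc is filled in Hemin and in IPC+IRI.

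G6pc is the catalytic subunit of glucose-6-phosphatase, which releases free glucose. It stood at 4.84, 5.45, 4.71 and 4.93 on the Control arrays and at 3.78, 4.25, 4.02 and 4.15 on the Hemin arrays. It stood at 4.27, 3.49, 3.15 and 4.52 on the IPC+IRI arrays. The Hemin and IPC+IRI arrays all lay below every Control array. On the IRI arrays G6pc stood at 5.07, 4.38, 4.51 and 4.01, and on the IRI+Hemin arrays at 4.01, 5.02, 4.54 and 3.91, each group reaching into the Control range.

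G6pc fell by 1.13 ± 0.30 (log2, SE) in IPC+IRI vs Control (45.8% of the Control level, adjusted p = 0.00386) and by 0.93 ± 0.30 in Hemin vs Control (52.5%, adjusted p = 0.0215). The differences of -0.49 in IRI and -0.61 in IRI+Hemin had adjusted p of 0.181 and 0.0875. Without normalization between arrays the first 2 were -0.69 and -0.37 and passed no test. The call in Hemin was also lost with normexp (-0.76), without Control replicate 2 (-0.78) and without Hemin replicate 1 (-0.84). Fbp1, the fructose-1,6-bisphosphatase of liver and kidney, had a mean of 7.21 ± 0.20 in Control, 7.17 ± 0.07 in Hemin, 7.21 ± 0.11 in IPC+IRI, 7.09 ± 0.55 in IRI+Hemin and 7.14 ± 0.28 in IRI. Its differences from Control lay between -0.12 and 0.01, and their intervals reached from -0.54 to 0.43.

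In counts, 3 of the 6 glycolytic genes were called higher and 0 lower in each of IRI, IRI+Hemin and IPC+IRI against Control, beside the 17.1%, 24.4% and 23.3% of all genes called higher there. Their median log2 difference was 0.45, 0.64 and 0.70, and that of all genes tested was -0.17, -0.10 and -0.09. In Hemin vs Control no glycolytic gene was called by limma and 1 had an unadjusted p below 0.05, beside 18.5% of all genes called higher. The median was 0.13, that of all genes 0.06, and without normalization, where 47.5% of all genes were called higher, 4 of the 6 were. Of the 2 gluconeogenic genes, 1 was called lower in IPC+IRI and 1 in Hemin, beside 32.7% and 17.6% of all genes, and none in IRI or IRI+Hemin. The comparisons share the Control arrays and are not independent of each other. SAM, the test the study's methods name, called Pfkp alone, in IRI+Hemin and in IPC+IRI, where the median number of false calls was 0. Over all genes it called 805 higher and 2096 lower in IRI, 980 and 1675 in IRI+Hemin, 781 and 1430 in IPC+IRI, and 196 and 693 in Hemin against Control.

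Whether the pretreatments altered these enzymes after ischemia was asked by comparing the treated ischemic groups with IRI. In IPC+IRI vs IRI, Pfkp was higher by 0.51 ± 0.15 (1.43-fold, adjusted p = 0.0101), every IPC+IRI array lying above every IRI array, and the other 7 genes passed no test. That call was lost with the brightest probe (0.22) and with only the compared arrays in the fit (adjusted p = 0.0556). G6pc differed by -0.64 in the same comparison (interval -1.26 to -0.01, adjusted p = 0.0908). In IRI+Hemin vs IRI no gene was called by limma, 1 had an unadjusted p below 0.05, and SAM called none of them. SAM called 690 of all genes higher and 373 lower there, and 565 and 375 in IPC+IRI vs IRI. Pfkp differed by 0.32 (interval 0.01 to 0.64, adjusted p = 0.0859) and Hk2 by -1.14 (interval -2.76 to 0.48). Both comparisons cross scan days, and no value within a day could be had.

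The interaction asked whether Hemin changed a gene differently with and without ischemia, as the IRI+Hemin minus IRI difference less the Hemin minus Control difference. None of the 8 genes passed it by limma, none had an unadjusted p below 0.05, and 7.79% of 19058 genes did pass (5.83% positive and 1.96% negative, 4.51% and 2.60% after quantile normalization, 6.03% and 0.762% in the deposited matrix, 1.68% and 0.441% without normalization, and 0.614% and 0.152% with normexp). The value for G6pc was 0.81, with an interval from -0.08 to 1.70. For Pfkp it was -0.01 with an interval from -0.45 to 0.44, and for Hk2 the interval ran from -3.02 to 1.59.

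The routes were set against each other on each array by averaging the log2 levels of the 6 glycolytic and of the 2 gluconeogenic genes, each gene centred on its Control mean. The glycolytic mean was 0.07 ± 0.19 in Hemin, 0.92 ± 0.11 in IPC+IRI, 0.69 ± 0.24 in IRI+Hemin and 0.89 ± 0.145 in IRI, and the Control arrays ran from -0.40 to 0.61. The gluconeogenic mean was -0.485 ± 0.12, -0.56 ± 0.315, -0.36 ± 0.08 and -0.28 ± 0.31 in the same order, and the Control arrays ran from -0.14 to 0.36. The glycolytic mean less the gluconeogenic mean was 0.56 ± 0.31 in Hemin, 1.48 ± 0.40 in IPC+IRI, 1.05 ± 0.28 in IRI+Hemin and 1.17 ± 0.35 in IRI. Every ischemic array exceeded every Control array in this difference, whose Control range was -0.27 to 0.25. Hemin arrays ran from 0.20 to 0.90 and overlapped with Control, IRI and IRI+Hemin, and all lay below the lowest IPC+IRI array (1.05). The glycolytic mean is weighted by Hk2, the gene with the widest spread, and the gluconeogenic one moved through G6pc, so the means describe those genes first.

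**Figure D4:**
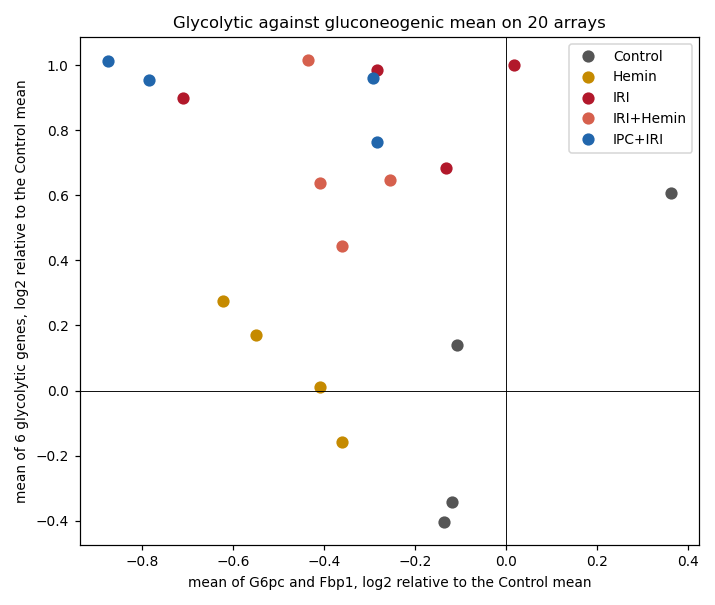
Mean of the 6 glycolytic genes (y axis) against the mean of G6pc and Fbp1 (x axis) on each of the 20 arrays, both as log2 relative to the Control mean and coloured by group. The ischemic arrays lie high and mostly left of 0, the Hemin arrays left of 0 near the level of Control on the y axis, and Control replicate 2 in the upper right.

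Several genes were read by more than 1 probe, and the probes of a gene did not always move alike. Fitted one by one, a choice made after the values were seen, single probes were called in either direction for 48.6% of all probes in IRI vs Control, 57.5% in IRI+Hemin vs Control, 56.3% in IPC+IRI vs Control, 36.4% in Hemin vs Control, 46.9% in IRI+Hemin vs IRI and 46.6% in IPC+IRI vs IRI. Of the 3 Pfkfb3 probes, A_51_P212491 (mm9 chr2:11393579-11393638), by far the brightest, was higher than Control by 1.13 to 1.32 in the 3 ischemic groups. A_52_P362917 was well above background on 1 Control array and A_52_P138126 on none, so both passed the filter on dim probes through the ischemic groups alone, and their differences from Control are neither given nor counted beside the first. Of the 3, A_52_P362917 was the one called between IPC+IRI and IRI, where it was lower (-0.77, adjusted p = 0.038). Of the 3 Pfkp probes, A_51_P378856 was higher by 0.74 to 1.02 and A_52_P223083 by 1.32 to 2.58 in these comparisons. The third, A_52_P572045, differed by -0.37 to 0.22 and passed no test. The rise of Pfkp in IPC+IRI over IRI was called in A_52_P223083 (1.27, adjusted p = 0.00263) and not in A_51_P378856 (0.22, adjusted p = 0.144).

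The 2 Ldha probes moved apart in IRI+Hemin vs Control. A_51_P364140 (mm9 chr7:54110889-54110948) differed by -0.40 ± 0.16 (log2, SE), a fall with an adjusted p of 0.0338. A_51_P364146 (mm9 chr7:54109426-54110355) was higher by 0.35 ± 0.13 (adjusted p = 0.0353), and it was also higher in IPC+IRI vs Control (0.39, adjusted p = 0.0184). The gene value averages them and passed no test. Of the 6 Hk1 probes, A_52_P102773 is the brightest and sets the gene value, and it was called in no comparison. A_51_P249024 (mm9 chr10:61734377-61734436) was higher in Hemin (0.47, adjusted p = 0.0407) and in IRI+Hemin (0.43, adjusted p = 0.0426) than in Control. A_52_P479599 was lower in IPC+IRI than in IRI (-0.58, adjusted p = 0.0337). A_52_P9337 was well above background on 1 IRI array and on all 4 IRI+Hemin arrays, and no difference is given for it. A_52_P87141 was well above background on 1 of the 20 arrays. The Pgk1 probes overlap on the genome, and neither was called in any comparison.

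**Figure D5:**
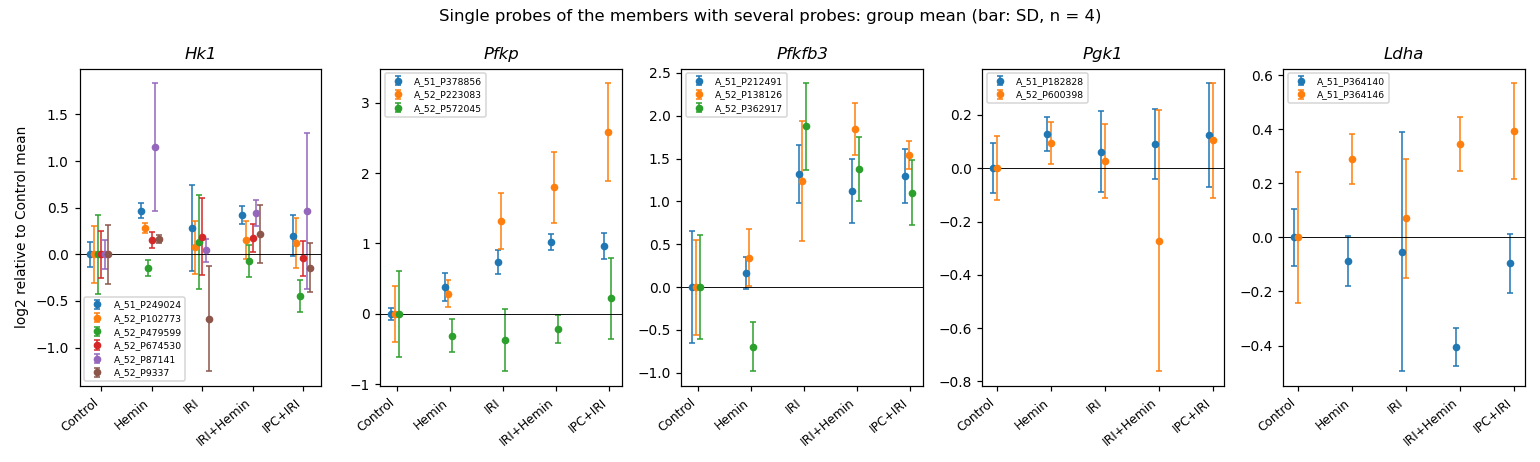
Group mean of each probe (log2 relative to that probe's Control mean, SD as bars, n = 4) for the 5 genes with several probes, in the 5 groups. The brightest Pfkfb3 probe and 2 of the 3 Pfkp probes lie above Control in the ischemic groups, and the Ldha probes part in IRI+Hemin. The other Pfkfb3 probes were near background in Control.

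Beyond these genes, 22 other glycolytic enzymes were tested. In IRI vs Control 3 were higher and 3 lower, beside 17.1% and 33.9% of all genes, with a median of -0.07. Those higher were Pfkfb4, another maker of fructose 2,6-bisphosphate (1.16, adjusted p = 1.11e-05), Eno2, the neuronal enolase (2.05, adjusted p = 3.51e-07), and Pkm2, a pyruvate kinase (0.42, adjusted p = 0.00688). Those lower included Pfkfb2 (-0.55, adjusted p = 0.000491) and Pfkfb1 (-0.54, adjusted p = 0.0423). With normexp and without normalization the calls of Pfkfb2, Pkm2 and Pfkfb1 were lost, while Pfkfb4 and Eno2 stayed called. Eno2, Pkm2 and Pfkfb1 were named after their values were seen. Eno2 and Pfkfb4 were also higher in IRI+Hemin (2.09 and 0.98) and IPC+IRI (1.99 and 1.37), and with normexp the Eno2 differences were 0.44 and 0.42 and passed no test. Against Control 2 were higher and 9 lower in IRI+Hemin, in IPC+IRI vs Control 2 and 7, and in Hemin vs Control 2 and 7. Of all genes, 24.4% were called higher and 33.2% lower in IRI+Hemin, 23.3% and 32.7% in IPC+IRI, and 18.5% and 17.6% in Hemin. Those of the list lower in IRI+Hemin included Pfkfb2 (-0.82), Tpi1, triose phosphate isomerase (-0.67, adjusted p = 0.000136), Gapdh (-0.52, adjusted p = 0.0016) and Pgam1 (-0.31, adjusted p = 0.0216), the last 3 named after their values were seen. The means of Gapdh and Tpi1 were 6.68 and 6.28 in Control, 5.94 and 5.88 in IPC+IRI and 5.98 and 5.945 in Hemin. Eno1, an enolase also named after its values were seen, had a mean of 2.43 ± 0.425 in Control. It was 0.41 ± 1.45 in IRI+Hemin and 1.07 ± 0.11 in IPC+IRI. With normexp the counts of the list against Control were 1 and 4, 1 and 3, and 1 and 2. After quantile normalization they were 2 and 10, 2 and 9, and 2 and 7, and in the deposited matrix 2 and 6, 2 and 6, and 2 and 5. Without normalization between arrays they were 5 and 1, 6 and 0, and 9 and 0, the one scaling under which more were higher than lower. Pfkl and Pfkm, the other phosphofructokinases, were also named after their values were seen. Pfkl, the liver form, was lower in IRI+Hemin (-0.45, adjusted p = 0.00936), IPC+IRI (-0.60, adjusted p = 0.00127) and Hemin (-0.42, adjusted p = 0.024), calls lost with normexp and without normalization, and differed by -0.28 in IRI (adjusted p = 0.0975). Pfkm, the muscle form, differed by -0.41 in IRI (adjusted p = 0.0608), every IRI array lying below every Control array, and by -0.30, -0.24 and 0.13 in IRI+Hemin, IPC+IRI and Hemin, and was lower in the ischemic groups after quantile normalization. The medians of the list without normalization, 0.18, 0.27 and 0.52, lay below those of all genes given above. Against IRI, 1 was higher and 4 lower in IRI+Hemin, beside 26.3% and 18.1% of all genes. In IPC+IRI vs IRI 0 were higher and 5 lower, beside 26.3% and 17.9%. Without normalization these counts were 2 and 1, and 4 and 1.

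Of the 7 other gluconeogenic genes, 6 were tested in IRI vs Control, and Fbp2, the muscle bisphosphatase, was lower (-0.58, adjusted p = 0.0109), a call lost with normexp (-0.31) and without normalization (-0.46). The differences of Pck2 (0.06), the mitochondrial carboxykinase, Pcx (-0.05), pyruvate carboxylase, Slc37a4 (-0.25), the glucose 6-phosphate transporter, and G6pc3 (-0.01) passed no test. In Hemin vs Control, Pck2 (0.42, adjusted p = 0.0161) and Slc37a4 (0.46, adjusted p = 0.0235) were higher, G6pc2 differed by 0.10 and none was lower. Of all genes, 18.5% were called higher there. In that comparison 1 of the 7 was higher with normexp and 1 of 5 in the deposited matrix. After quantile normalization 2 were higher and 1 lower, and without normalization 3 were higher. Against Control, Pcx was the 1 of 6 called higher in IRI+Hemin (0.59, adjusted p = 0.0303), and none was lower. With normexp 3 of the 6 were higher there, in the deposited matrix 3 and without normalization 5, Pcx and Pck2 among them each time. After quantile normalization none was higher, Pcx differing by 0.39, and G6pc3 was lower (-0.33, adjusted p = 0.00961). In IPC+IRI vs Control none was called by limma, and 1 (Fbp2, -0.38) had an unadjusted p below 0.05. There 3 were lower after quantile normalization and 1 with normexp, and 2 were higher without normalization (Pck2, 0.54, and Slc37a4, 0.51), so this list had no direction that held across the scalings. Of the 6, 3 were higher in IRI+Hemin vs IRI, beside 26.3% of all genes: Fbp2 by 0.89 (adjusted p = 0.000635), Pcx by 0.64 (adjusted p = 0.025) and Slc37a4 by 0.57 (adjusted p = 0.00484). These 3 passed in that comparison also with normexp, without normalization and after quantile normalization. In IPC+IRI vs IRI none of the 6 was called by limma, and 1 (Slc37a4, 0.32) had an unadjusted p below 0.05.

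Pyruvate dehydrogenase joins glycolysis to the citric acid cycle, and its kinases switch it off. Of 9 such genes tested, Pdk4, a kinase known to follow fasting and fatty acid use, was the one called in IRI vs Control, higher by 4.00 ± 0.31 (16-fold, adjusted p = 2.68e-08). It was higher by 4.22 in IRI+Hemin (adjusted p = 2.17e-08) and by 3.21 in IPC+IRI (adjusted p = 3.86e-07), and lower in Hemin vs Control (-1.06, adjusted p = 0.0138). Its level was 1.4 ± 0.735 in Control, 0.34 ± 0.42 in Hemin, 4.61 ± 0.60 in IPC+IRI, 5.62 ± 0.11 in IRI+Hemin and 5.40 ± 0.19 in IRI. Over the list, 1 was higher and 3 lower in IRI+Hemin vs Control, 2 and 3 in IPC+IRI, and 2 and 2 in Hemin. The shares of all genes called higher and lower were 24.4% and 33.2%, 23.3% and 32.7%, and 18.5% and 17.6%. Pdk2 and Pdk3, other kinases of the enzyme, were lower in IRI+Hemin (-0.58, adjusted p = 0.0192, and -0.77, adjusted p = 0.000232) and in IPC+IRI (-1.14, adjusted p = 0.000109, and -0.38, adjusted p = 0.0314). Without normalization none of these 4 differences passed, and with normexp that of Pdk3 in IPC+IRI did not. Pdk2 and Pdk3 were named after their values were seen. The ischemic rises of Pdk4 kept their sign and call under the 4 other scalings, and without normalization its difference in Hemin was -0.50 and passed no test.

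Of 13 regulators, 6 were higher and 4 lower in IRI vs Control, beside 17.1% and 33.9% of all genes, with a median of 0.07. With normexp these counts were 3 and 2, without normalization 3 and 1, after quantile normalization 6 and 3, and in the deposited matrix 3 and 4 of 12. Myc, an activator of glycolytic genes, was higher by 4.05 (adjusted p = 3.08e-09), Cebpb by 2.69 (adjusted p = 1.8e-07) and Hif1a, the oxygen-regulated subunit of HIF, by 1.08 (adjusted p = 6.22e-06), and these 3 were called higher under each of those scalings. Among those lower, Ppargc1a, a coactivator of mitochondrial and gluconeogenic genes (-0.86, adjusted p = 0.00104), was called under each of them. It went the other way in IRI+Hemin vs Control (0.85, adjusted p = 0.0011, called higher under each scaling) and in IPC+IRI (0.49, adjusted p = 0.0365, not called after quantile normalization). Nr3c1, the glucocorticoid receptor (-0.58, adjusted p = 0.000561), was not called with normexp (-0.40) or without normalization (-0.46). It was lower also in IRI+Hemin (-0.79) and IPC+IRI (-0.85), calls lost without normalization. Creb1 (-0.59, adjusted p = 0.00606) was not called with those or after quantile normalization (-0.07, -0.47 and -0.27). Creb1 was instead higher in IRI+Hemin (0.49, adjusted p = 0.0172) and IPC+IRI (0.47, adjusted p = 0.0215), calls lost with normexp and in the deposited matrix. Ppargc1a, Nr3c1 and Creb1 were named after their values were seen. Hif1a differed by 0.10 in IRI+Hemin vs Control (adjusted p = 0.571), by -0.36 in IPC+IRI (adjusted p = 0.0344, but 0.08 without normalization) and by -0.81 in Hemin (adjusted p = 0.000383, but -0.25 and no call without normalization). Against IRI, Hif1a was lower in IRI+Hemin (-0.98, but -0.62 and no call without normalization) and in IPC+IRI (-1.43). Myc was higher in IRI+Hemin (2.33) and IPC+IRI (1.75) and lower in Hemin (-1.41, adjusted p = 0.000622). Cebpb was higher in IRI+Hemin (2.25) and IPC+IRI (2.41). Egln3, a known target of HIF named after its values were seen, was higher in IRI+Hemin (0.74, adjusted p = 0.000284, called under each scaling) and in IRI (0.37, adjusted p = 0.0396, not called with normexp, without normalization or in the deposited matrix). It differed by 0.21 in IPC+IRI and 0.29 in Hemin and passed no test. The HIF protein was not measured.

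Marker genes of kidney cells were summed on the linear scale relative to the 75th percentile. In IRI, IRI+Hemin, IPC+IRI and Hemin against Control, 3, 7, 5 and 2 of 9 proximal tubule markers were lower and none was higher. Of all genes, 33.9%, 33.2%, 32.7% and 17.6% were called lower in these comparisons. With normexp 3, 5, 4 and 1 of the 9 were lower, after quantile normalization 4, 8, 7 and 2, and without normalization 2, 1, 1 and 1, with 5 of 9 higher in Hemin. In the deposited matrix 2, 3, 3 and 2 of 7 were lower and 1 was higher in IRI+Hemin. All 9, among them Lrp2 and Slc34a1, were well above background on every array. Their sum was 394 to 443 in Control, 341 to 379 in Hemin, 241 to 302 in IPC+IRI, 227 to 301 in IRI+Hemin and 312 to 405 in IRI. This sum is weighted by Slc34a1, with a mean log2 level of 7.517 in Control and 6.975 in Hemin. Lrp2 stood at 5.47 and 5.54 and Cubn at 5.12 and 5.49 in those groups. G6pc and Fbp1 are proximal tubule genes. G6pc was called lower in IPC+IRI and Hemin but not in IRI+Hemin, where the sum reached its lowest value, and Fbp1 was not called. The sum of 6 thick limb and distal markers was 246 to 312 in Control and 253 to 401 over the ischemic groups. That sum is weighted by Umod. The mean log2 levels of Umod and Slc12a1 were 7.58 and 4.59 in Control and 7.57 and 4.74 in IRI. They were 7.89 and 4.39 in IRI+Hemin and 7.67 and 4.40 in IPC+IRI. Of the 6, 1 was higher in IRI vs Control, 2 were higher and 1 lower in IRI+Hemin, 3 were higher in IPC+IRI and none was called in Hemin. Of all genes, 17.1%, 24.4% and 23.3% were called higher in the ischemic groups. Aqp2, the water channel of the collecting duct, was higher by 1.23, 1.05 and 0.97 in the ischemic groups. Its call was lost with normexp in IRI+Hemin and after quantile normalization in IPC+IRI. Calb1 was lower in IRI+Hemin (-1.06, adjusted p = 0.000387), and both were named after their values were seen. Without normalization 1, 4, 5 and 3 of the 6 were higher in IRI, IRI+Hemin, IPC+IRI and Hemin. The sum of 11 leukocyte markers was 2.03 to 2.26 in Control, 2.11 to 3.23 in Hemin, 5.23 to 10.2 in IRI, 4.29 to 12.3 in IRI+Hemin and 7.81 to 22.2 in IPC+IRI, with 7 to 11 of them well above background. The sum is on the linear scale and is weighted by S100a9, a neutrophil protein, whose log2 level ran from -2.67 to -1.25 in Control, -1.46 to 0.42 in Hemin and 0.89 to 4.07 over the ischemic groups. No count of leukocyte calls is given, since Il8rb and Csf3r were well above background on no Control array, Itgam and S100a8 on 2 of 4, and Cd79a on 0 or 1 array of each other group. Of the 6 markers well above background on every array, S100a9 was higher by 3.68, 3.87 and 4.95 in IRI, IRI+Hemin and IPC+IRI, and Cd68, a macrophage marker, by 2.23, 1.75 and 1.41. The other 4, Ptprc, Emr1, Csf1r and Cd3e, passed no test against Control, and Ptprc, carried by all leukocytes, differed by 0.01, -0.03 and 0.65. The sum of 3 red cell markers ran from 31.6 to 140 in Control and from 10.6 to 155 over the other groups, and that of 2 tubular injury markers from 1.47 to 1.72 in Control, 0.689 to 1.33 in Hemin, 2.45 to 7.89 in IPC+IRI, 1.41 to 3.53 in IRI+Hemin and 4.35 to 6.25 in IRI. The part of any of these in the enzyme values was not tested.

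As a description, the genes whose level followed the glycolytic mean most closely over the 20 arrays, among 14520 genes well above background on all of them, were Cdk5r1 (r = 0.945), 100041143 (r = 0.92), Ppbp (r = 0.903), D230037D09Rik (r = 0.897) and 2310058N22Rik (r = 0.892). Those closest to the gluconeogenic mean were Tex2 (r = 0.801), AK136920 (r = 0.797), AK038605 (r = 0.794), Cnot3 (r = 0.793) and Pfkfb2 (r = 0.771). The arrays share slides and groups, and Pfkfb2 is also the form of the bifunctional enzyme that was lower than Control in all 4 other groups (with differences of -0.62 in Hemin, -0.88 in IPC+IRI, -0.82 in IRI+Hemin and -0.55 in IRI). With normexp these Pfkfb2 differences were -0.46, -0.47, -0.47 and -0.04 and passed no test.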

How the data were processed

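Cy3-labelled kidney RNA was hybridised one sample to an array on Agilent 4x44K slides. The authors deposited the scanner output of Feature Extraction 9.5.3.1 (per the submitters' processing notes), whose processed signal is an intensity after background subtraction within the array, and a matrix of log2 processed signal in which 18.1% of the values are blank. The filter behind the blanks is not given in the sources used here. The deposited intensity was scaled within each array to the 75th percentile of its 41174 probes, spots of a probe and then probes of a gene name were averaged on the linear scale, as the methods average probes, and log2 was taken. A gene was tested with limma 3.58.1 (R 4.3.3) where 3 or more of a group's 4 arrays, in either group compared, were well above background and at most 1 value was missing. The fit held 5 group means over 20 arrays (15 residual degrees of freedom). Bright signals carry less relative error, and the 4 arrays a group limit the precision. Arrays were named and grouped by GEO's labels, and no pair held identical values. The tests were tried on simulated data. The genes and lists were chosen with earlier results of these data known. The rule named all 9 members, the other gluconeogenic genes and, from each other list, the 3 largest changes called in IRI vs Control among genes well above background on all 8 arrays; some genes it named are not reported here. Alternatives covered background correction, normalization, probe summary, the deposited matrix, the filter, the arrays in the fit, SAM, the replicate number and leaving out each array.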

Additional observations from a re-analysis of the deposited data

Results flagged for a closer look

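In 40 sets of 4 arrays (8 genes in 5 groups), 3 held an array far from the other 3 by Dixon's ratio at its 95% critical value, and chance alone gives about 1 in 20. Hk1 stood at 2.11 on Control replicate 1 and at 1.53 to 1.63 on the other Control arrays (ratio 0.833). Pgk1 stood at 6.05 on Control replicate 2 and at 5.83 to 5.85 on the others (ratio 0.885). Ldha stood at 5.69 on IRI replicate 4 and at 6.12 to 6.20 on the others (ratio 0.844). Without that array the Ldha difference of IRI+Hemin from IRI was -0.30 (adjusted p = 0.00674), against -0.18 (adjusted p = 0.161) with it.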

How the results depend on the processing

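Of 1049 values of the 56 gene results under the alternatives, 1017 kept their side of the threshold, 14 lost a call, 18 gained one and no called value reversed; 104 values that passed no test changed sign. The count of genes called higher in Hemin vs Control, 0 in the report, was 4 without normalization, 1 with the brightest probe, 1 with the mean of log2 values, and 0 to 1 on leaving out an array (1 without Control replicate 1). The count called lower there, 1 in the report, was 0 with normexp, without normalization, in the deposited matrix and by SAM, and 0 to 1 on leaving out an array (0 without Control replicate 2 or Hemin replicate 1). The count higher in IRI+Hemin vs Control, 3, was 2 with normexp and with only the arrays compared (both without Hk2), 2 in the deposited matrix (without Pfkfb3, 1.99, adjusted p = 0.0538), 4 without normalization (Hk1, 0.64, gained) and 2 to 3 on leaving out an array. The count lower there, 0, was 2 with quantile normalization, 1 with the brightest probe, and 0 to 1 on leaving out an array (G6pc, -0.83, without IRI+Hemin replicate 2). The count lower in IPC+IRI vs Control, 1, was 0 without normalization, in the deposited matrix and by SAM. In IRI+Hemin vs IRI the count higher, 0, was 1 without normalization and 1 in the deposited matrix (Pfkp), and the count lower, 0, was 1 with quantile normalization and 0 to 1 on leaving out an array (Ldha, without IRI replicate 4). In IPC+IRI vs IRI the count higher, 1, was 0 with the brightest probe, with only the arrays compared and by SAM, and the count lower, 0, was 1 with quantile normalization and 0 to 1 on leaving out an array (G6pc, -0.86, without IPC+IRI replicate 4). The 3 genes higher against Control by limma were 0 by SAM in IRI, 1 in IRI+Hemin and 1 in IPC+IRI. The deposited matrix held 13 of 20 values of G6pc and 0 of Fbp1, so neither could be tested there, and for the other changes the cause was not tested.

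With the replicate number as a replicate block, 3, 3, 3, 0, 0 and 1 genes were higher and 0, 0, 1, 1, 0 and 0 lower in the 6 comparisons, and 0 passed the interaction, as without it. Same-numbered arrays share only a number: over 40 pairs their deviations correlated at -0.379 to 0.21 (median -0.031), with 7 over 0.1. Slide as a random block could not be fitted, since each group has 1 slide. Genes near background, such as Hk2 in Control, are the least precise.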
